A study of Mus musculus with 9 samples.

Results

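Semaphorins, plexins and neuropilins were described in cultured cells of the embryonic mouse cortex. Members were all genes whose only symbol in the array's annotation belongs to the semaphorin classes 3 to 7, the plexins A to D, the neuropilins Nrp1 and Nrp2, or the plexin domain-containing genes (Plxdc). The rule found 34 of the 22180 genes with a named probe set: 20 semaphorin ligands, 13 plexin, neuropilin and Plxdc genes, and Plxna4os1, a transcript annotated opposite Plxna4 that enters by its symbol and encodes no receptor. All cells came from wild-type CD1 mice, and total RNA was read on Affymetrix mouse arrays, with 3 arrays per group. In the co-culture, precursors from embryonic day 13 were kept for 1 day on neurons from embryonic day 16 that had 5 days in culture in total. The neuron group held such neurons alone, labelled with 4 days of culture in one place and 5 days in another. The precursor group held embryonic day 13 cells alone, cultured for 1 day.

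Semaphorins are secreted or membrane-bound ligands that steer growing axons and migrating cells, mostly through plexins, whose cytoplasmic part acts on small GTPases and the cytoskeleton. The secreted class 3 ligands mostly need a neuropilin as the binding subunit beside a plexin A. In the cortex they guide callosal and corticofugal axons, orient dendrites, and direct interneurons on their way into the cortical plate.

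Levels are log2 RMA values, so that a difference of 1 is 2-fold. Differences were tested with limma over 13012 genes that lay above the median of all probe sets on at least 3 arrays, and a difference passed at a Benjamini-Hochberg adjusted p under 0.05. Of the 34 members, 29 lay above the array median on all 9 arrays. Plxna4os1 did so on 7 and Sema3d on 1. Sema3b, Plxdc1 and Plxnb3 were below it on all 9. The 29 and Plxna4os1, 30 members in all, were tested, and none of them passed the filter through the arrays of 1 group alone. The array medians were 6.75 to 6.79.

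The labels were set against marker lists. In neurons 6 of 7 neuron markers were higher than in precursors, and all 8 radial precursor markers and all 3 tested cycling cell markers were lower. The exception was Tubb3, a tubulin of young neurons, at 11.95 in neurons and 11.96 in precursors, which did not pass. Endothelial markers were lower in neurons in 4 of 4 tested cases, with a mean level over 6 genes of 6.42 to 6.51 in neurons, against 6.88 to 6.97 in precursors, and Cldn5 and Tek were below the array median on all 9 arrays. Of 5 tested microglia markers 1 was higher and 2 were lower in neurons. All 3 intermediate progenitor markers were lower in neurons, with a mean level of 7.28 to 7.64 in neurons and 8.31 to 8.43 in precursors, and of 4 tested interneuron markers 1 was higher and 3 were lower. The part of these cell types in the differences of the members was not tested. In these bulk samples, more cells of a type and more RNA per cell cannot be told apart, and cell type cannot be told apart from embryonic day and time in culture.

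To show members at both ends of the comparison, the 250 bases before the annotated start of the 2 most raised and the 2 most lowered members with an entry in RefSeq's promoter table (GRCm38.p6) are printed from 5′ to 3′ on the gene's strand. They are chr9:57939862-57940111 (plus strand) for Sema7a, chr17:56140344-56140593 (minus strand) for Sema6b, chr16:35541112-35541361 (plus strand) for Sema5b and chr2:124089719-124089968 (plus strand) for Sema6d. Sema6b and Sema6d have 2 starts in the table, and the one nearest the 5′ end of the gene is shown. Capitals mark matches, on either strand, to 4 motifs: the E-boxes CAGCTG and CAGATG, the GC box GGGCGG and the cyclic AMP response element TGACGTCA.
Sema7a: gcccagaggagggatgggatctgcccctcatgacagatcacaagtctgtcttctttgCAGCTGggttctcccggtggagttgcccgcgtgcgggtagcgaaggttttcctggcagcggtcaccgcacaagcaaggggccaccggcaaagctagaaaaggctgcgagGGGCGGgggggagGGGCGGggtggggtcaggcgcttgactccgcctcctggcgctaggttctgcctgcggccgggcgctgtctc
Sema6b: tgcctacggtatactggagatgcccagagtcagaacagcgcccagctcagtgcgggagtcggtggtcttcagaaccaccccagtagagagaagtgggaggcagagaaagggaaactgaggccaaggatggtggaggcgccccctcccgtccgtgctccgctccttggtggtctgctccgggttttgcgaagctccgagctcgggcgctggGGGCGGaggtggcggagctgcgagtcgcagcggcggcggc
Sema5b: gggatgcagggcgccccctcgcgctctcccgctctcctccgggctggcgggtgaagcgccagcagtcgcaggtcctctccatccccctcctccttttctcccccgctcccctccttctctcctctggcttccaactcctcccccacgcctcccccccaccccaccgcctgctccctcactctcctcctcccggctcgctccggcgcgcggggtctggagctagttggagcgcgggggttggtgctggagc
Sema6d: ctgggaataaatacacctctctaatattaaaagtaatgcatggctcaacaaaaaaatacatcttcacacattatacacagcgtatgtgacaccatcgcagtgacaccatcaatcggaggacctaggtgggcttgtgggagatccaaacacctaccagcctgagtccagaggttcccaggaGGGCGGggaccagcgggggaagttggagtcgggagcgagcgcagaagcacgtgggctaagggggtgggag
The Sema7a window held 1 CAGCTG and 2 GC boxes, the Sema6b and Sema6d windows 1 GC box each, and the Sema5b window none of the 4 motifs. Of 32851 windows of this length, 32.7% held the GC box, 13% CAGCTG, 14.4% CAGATG and 1.55% the cyclic AMP response element. The windows of Sema7a, Sema6b and Sema5b had 17, 20 and 19 CG pairs and that of Sema6d 9, against a median of 6 over all windows. A match describes the letters only. Of the 34 members, 26 have an entry in the table.

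The first comparison set neurons against precursors. Neurons had higher levels of Plxdc2, of the ligands Sema7a and Sema6b, and of every plexin A, plexin C1 and plexin D1. They had lower levels of both class 5 ligands, of Sema6d and of both tested plexin Bs. In all, 16 of 30 tested members were higher (53.3%, against 28.0% of all tested genes) and 7 were lower (23.3%, against 35.2% of all). The median log2 difference was 0.24 over the members and -0.020 over all tested genes. Of 18 tested ligands 8 were higher and 4 lower, and of 11 tested receptor-side genes 8 were higher and 3 lower. The neuron and precursor arrays did not overlap for 24 of the 30 members, against 66.4% of all tested genes. Plxdc2, Sema7a, Sema6b and Sema5b were at least 2-fold apart and passed, 4 of 30, where 10.3% of all tested genes did.

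**Figure D1:**
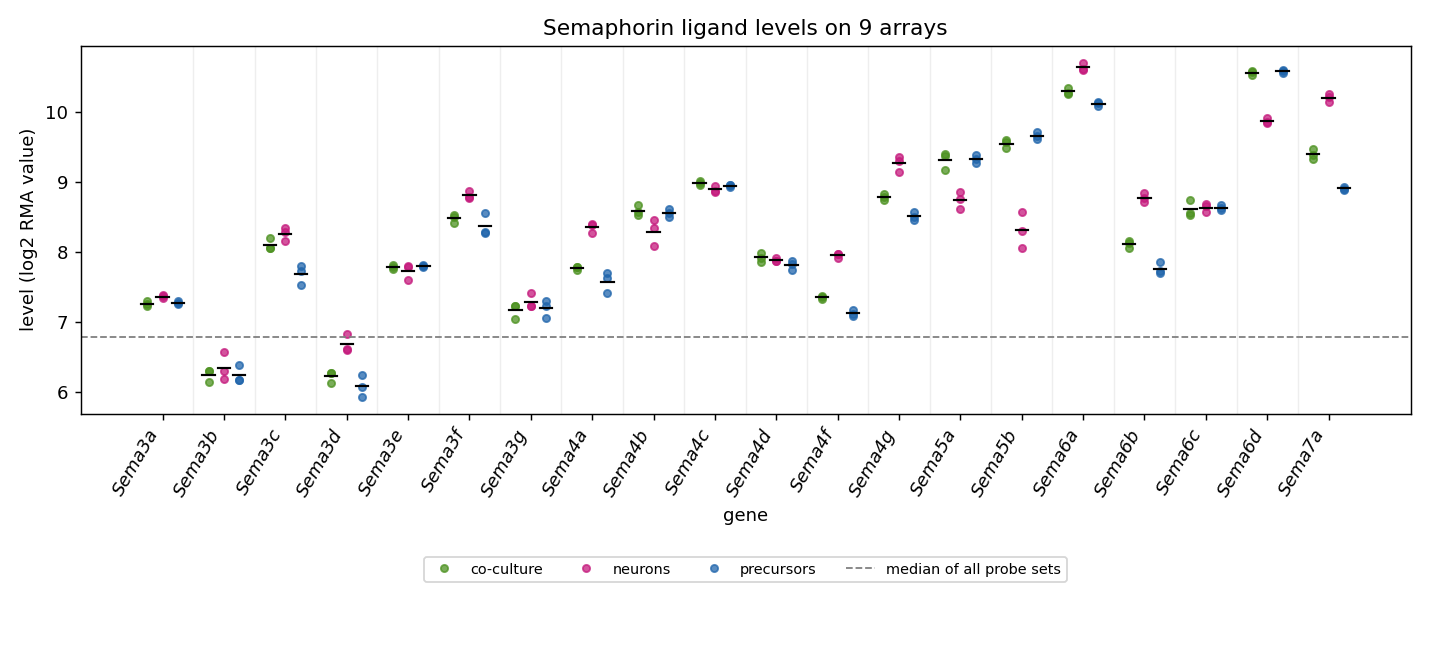
Levels (log2 RMA value, y axis) of the 20 semaphorin ligands on each of 9 arrays, in the co-culture, in neurons and in precursors from left to right within a gene. Points are arrays, short black lines group means and the dashed line the middle one of the 9 array medians; Sema7a and Sema6b stand highest in neurons, Sema5b and Sema6d lowest in neurons, and the co-culture of Sema5b and Sema6d lies beside the precursors.

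Among the secreted class 3 ligands, Sema3c, which draws callosal axons toward the midline, was at 8.15, 8.34 and 8.28 in neurons, against 7.52, 7.72 and 7.80 in precursors. The difference of 0.57 (SE 0.082, 1.49-fold, adjusted p = 1.57e-04, limma) passed. Sema3f, a repellent that acts through Nrp2, was at 8.80 ± 0.057 in neurons and 8.37 ± 0.16 in precursors (SD, n = 3 each), a difference of 0.44 (adjusted p = 7.24e-04, limma). The groups of both ligands were apart, with every neuron array above every precursor array. Sema3a, the best known repellent of cortical axons, which acts through Nrp1, was at 7.34, 7.36 and 7.38 in neurons and 7.29, 7.27 and 7.26 in precursors. These arrays did not overlap, but the gap of 0.088 (95% interval -0.0012 to 0.18, adjusted p = 0.0791, limma) did not pass. It did pass at 0.14 (adjusted p = 0.0130, limma) where arrays were centred on the median of the tested genes, a setting chosen after seeing the data. Sema3e, which binds plexin D1 directly, differed by -0.072 (interval -0.20 to 0.052) and Sema3g, a ligand of blood vessel cells, by 0.093 (interval -0.090 to 0.28), and neither passed.

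Sema3b and Sema3d were too dim for the test. Sema3d stood at 6.83, 6.59 and 6.60 in neurons, against 6.07, 6.23 and 5.92 in precursors, so the groups did not overlap. Without the filter its difference was 0.60 (adjusted p = 5.07e-04, limma). Sema3b was at 6.34 ± 0.19 in neurons and 6.23 ± 0.12 in precursors (SD, n = 3 each), and without the filter its difference of 0.11 did not pass (adjusted p = 0.473, limma).

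The transmembrane class 4 ligands split. Sema4f, which binds the postsynaptic scaffold PSD-95, was at 7.97, 7.97 and 7.91 in neurons and at 7.17, 7.11 and 7.08 in precursors, a 1.78-fold difference (log2 0.83, SE 0.043, adjusted p = 1.31e-07, limma). Sema4a was 1.72-fold higher in neurons (0.78, adjusted p = 7.36e-06, limma) and Sema4g, a ligand of plexin B2, 1.69-fold higher (0.76, adjusted p = 2.74e-06, limma). For these 3 ligands the neuron and precursor arrays were apart. Sema4b was lower in neurons, at 8.33, 8.45 and 8.08, against 8.56, 8.49 and 8.61 in precursors. Its difference of -0.27 (adjusted p = 0.0222, limma) did not pass with cyclic loess (adjusted p = 0.0601), without neuron replicate 3 (-0.16, adjusted p = 0.0547), without precursor replicate 1 (0.0540) or without precursor replicate 3 (0.0734). Neuron replicate 3 was the lowest of the neuron arrays. Sema4d, the ligand of plexin B1, differed by 0.067 (interval -0.048 to 0.18) and Sema4c, another ligand of plexin B2, by -0.053 (interval -0.15 to 0.040), and neither passed.

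Both class 5 ligands, which carry thrombospondin repeats and repel retinal neurites in mice through plexins A1 and A3, were lower in neurons. Sema5b was at 8.05, 8.30 and 8.57 in neurons, against 9.65, 9.62 and 9.71 in precursors. It was thus 2.55-fold lower (log2 difference -1.35, SE 0.11, adjusted p = 2.90e-06, limma), the largest drop among the tested members. The neuron arrays spread over more of the scale (SD 0.26) than the precursor arrays (SD 0.050), yet the highest neuron array stayed below the lowest precursor array. Sema5a, at 8.75, 8.61 and 8.85 in neurons and 9.32, 9.39 and 9.27 in precursors, was lower as well (-0.59, SE 0.078, adjusted p = 9.72e-05, limma).

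In class 6, transmembrane ligands that bind plexin As, members went opposite ways. Sema6b was at 8.71, 8.84 and 8.77 in neurons, against 7.73, 7.70 and 7.85 in precursors, 2.02-fold higher (1.02, SE 0.057, adjusted p = 2.15e-07, limma). Sema6a, a ligand of plexins A2 and A4, was 1.43-fold higher, at 10.64 ± 0.057 in neurons and 10.12 ± 0.033 in precursors (SD, n = 3 each; adjusted p = 6.81e-06, limma). Sema6d, a ligand of plexin A1, was instead 1.64-fold lower, at 9.83, 9.92 and 9.86 in neurons and 10.56, 10.60 and 10.58 in precursors (-0.71, SE 0.042, adjusted p = 3.23e-07, limma). Sema6c differed by 0.0026 (interval -0.14 to 0.14) and did not pass.

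Sema7a, the one ligand held to the membrane by a lipid anchor, promotes axon growth in mice. It was at 10.21, 10.26 and 10.14 in neurons and 8.93, 8.90 and 8.88 in precursors. With a 2.46-fold difference (1.30, SE 0.051, adjusted p = 2.18e-08, limma), it had the largest rise in neurons among the tested ligands. Plexin C1, its plexin receptor, was higher as well: Plxnc1 was at 9.51, 9.46 and 9.51 in neurons, against 9.01, 9.05 and 9.01 in precursors (0.47, adjusted p = 7.72e-06, limma).

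**Figure D2:**
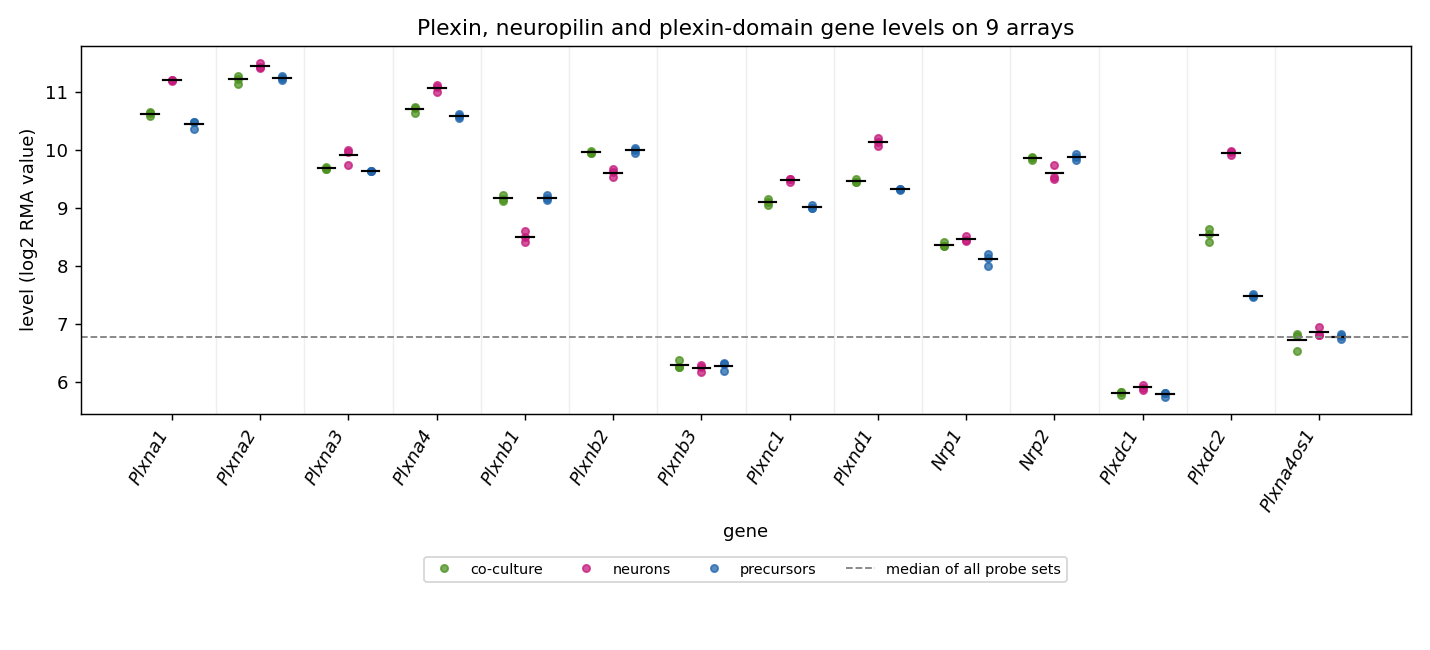
Levels (log2 RMA value, y axis) of the plexins, neuropilins, Plxdc genes and Plxna4os1 on each of 9 arrays, drawn as for the ligands. The plexin As, Plxnc1, Plxnd1 and Plxdc2 stand highest in neurons and Plxnb1 and Plxnb2 lowest in neurons; Plxnb3 and Plxdc1 lie under the dashed line in every group.

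On the receptor side, all 4 plexin As, which transmit class 3 signals beside a neuropilin and class 6 signals alone, were higher in neurons. Plxna1 was at 11.19, 11.21 and 11.22 in neurons, against 10.48, 10.38 and 10.49 in precursors, a 1.69-fold difference (0.76, SE 0.046, adjusted p = 3.89e-07, limma). Plxna4 was at 11.10, 11.01 and 11.13 in neurons and 10.56, 10.60 and 10.63 in precursors (0.48, adjusted p = 1.43e-05, limma). The smaller gaps were those of Plxna3 (0.27, adjusted p = 0.00441, limma) and Plxna2 (0.21, adjusted p = 0.00460, limma). In each of the 4 genes all neuron arrays lay above all precursor arrays. Plxna4os1 was at 6.87 ± 0.074 in neurons and 6.79 ± 0.041 in precursors (SD, n = 3 each) and did not pass (0.078, adjusted p = 0.395, limma).

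Plexin Bs, the receptors of class 4 ligands, ran the other way. Plxnb1 was at 8.41, 8.61 and 8.50 in neurons and 9.14, 9.18 and 9.22 in precursors, 1.59-fold lower (-0.67, SE 0.057, adjusted p = 4.25e-06, limma). Plxnb2, which mouse embryos need to close the neural tube, was at 9.53, 9.68 and 9.62 in neurons and 10.04, 9.95 and 10.01 in precursors, 1.31-fold lower (-0.39, adjusted p = 6.96e-05, limma). Plxnb3, a receptor of Sema5a, was dim, at 6.25 ± 0.058 in neurons and 6.28 ± 0.081 in precursors (SD, n = 3 each). Both tested plexin Bs were therefore apart between the groups, in the direction opposite to the plexin As.

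Plxna1 and Plxnb1 each have another probe set, which disagreed in size. The other set of Plxna1 was at 7.99, 7.99 and 8.01 in neurons and 7.68, 7.55 and 7.48 in precursors, the same order as above. That of Plxnb1 was at 7.11, 7.06 and 7.11 in neurons and 7.24, 7.11 and 7.11 in precursors, so its groups overlapped. With the probe sets of a gene averaged, the differences were 0.59 for Plxna1 and -0.37 for Plxnb1, and both still passed (adjusted p = 1.79e-06 and 4.19e-05, limma).

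Plxnd1, the receptor of Sema3e, was at 10.22, 10.08 and 10.15 in neurons, against 9.33, 9.34 and 9.32 in precursors, 1.76-fold higher (0.82, SE 0.047, adjusted p = 2.46e-07, limma). The neuropilins differed in direction. Nrp1, which binds Sema3a and vascular endothelial growth factor, was at 8.52, 8.45 and 8.44 in neurons and 8.02, 8.14 and 8.22 in precursors (0.35, adjusted p = 4.76e-04, limma). Nrp2, which binds Sema3f, was at 9.54, 9.51 and 9.76 in neurons and 9.89, 9.84 and 9.93 in precursors (-0.28, adjusted p = 0.00353, limma), and with cyclic loess the difference was -0.19 (adjusted p = 0.0397). Neither gene's groups overlapped.

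Plxdc2 had the widest gap of all tested members. It encodes a transmembrane protein with a plexin-like domain and is not known as a semaphorin receptor. It was at 9.92, 9.99 and 9.97 in neurons, against 7.53, 7.48 and 7.48 in precursors, 5.51-fold higher (2.46, SE 0.058, adjusted p = 1.44e-09, limma). Its relative Plxdc1 was below the array median throughout, at 5.91 ± 0.046 in neurons and 5.80 ± 0.041 in precursors (SD, n = 3 each).

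**Figure D3:**
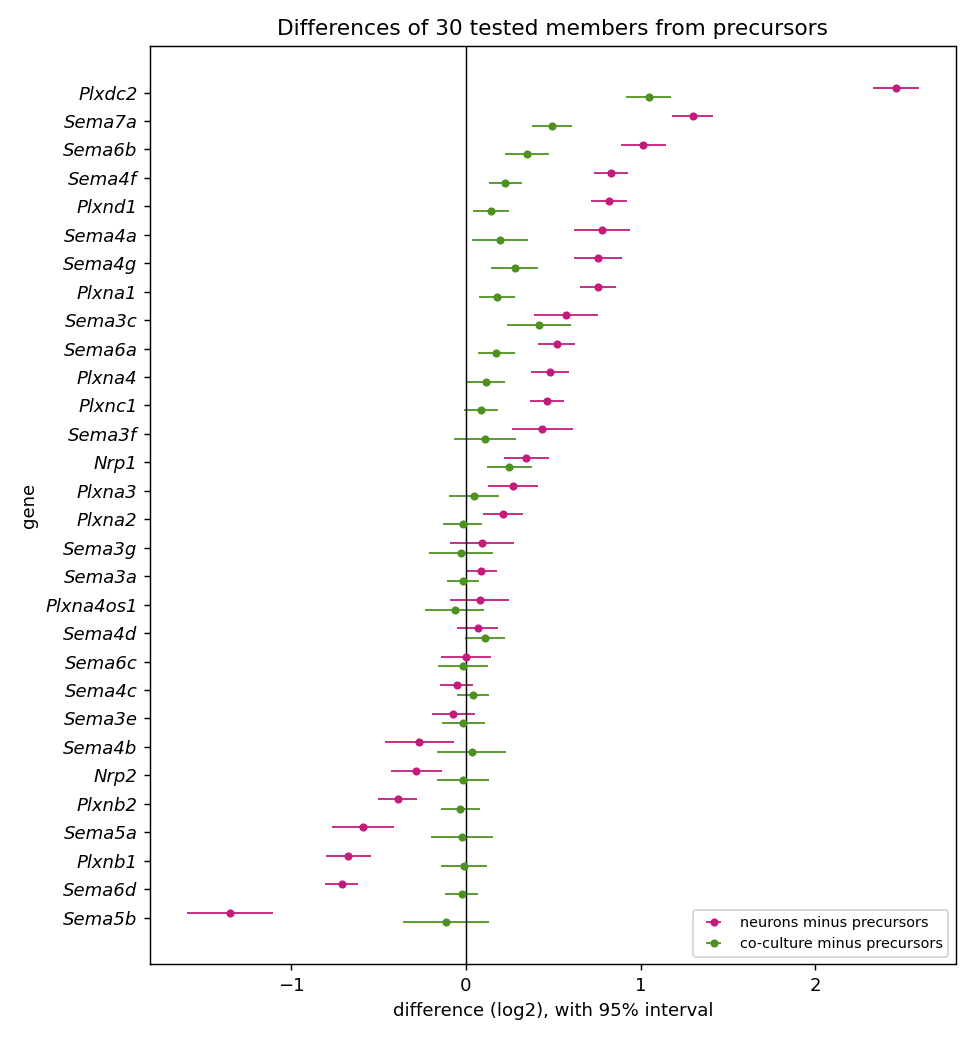
Log2 differences (x axis) from precursors of the 30 tested members, for neurons and for the co-culture, with 95% intervals from limma; both share the precursor arrays. Plxdc2 stands at 2.46 for neurons and 1.05 for the co-culture, and Sema5b at -1.35 for neurons and -0.11 for the co-culture.

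The co-culture was then set against precursors, to ask which members differ where neurons, and their RNA, are present. Of 30 tested members 8 were higher and none was lower, 26.7% against 8.22% of all tested genes higher and 0.200% lower. At an unadjusted p under 0.05, 12 members differed (limma), against 18.0% of all tested genes, and the arrays did not overlap for 15, against 24.8%. Of 7 neuron markers 4 were higher in the co-culture and none of 8 radial precursor markers passed; the neuron markers averaged 10.54 to 10.56 in the co-culture and 10.14 to 10.20 in precursors. Plxdc2 was at 8.64, 8.57 and 8.42 in the co-culture and 7.53, 7.48 and 7.48 in precursors, 2.06-fold higher (1.05, SE 0.058, adjusted p = 5.01e-06, limma). Sema7a was at 9.33, 9.47 and 9.39 in the co-culture and 8.93, 8.90 and 8.88 in precursors (0.49, SE 0.051, adjusted p = 2.67e-04, limma). Sema6b was at 8.15, 8.12 and 8.06 in the co-culture and 7.73, 7.70 and 7.85 in precursors (0.35, SE 0.057, adjusted p = 0.00377, limma). For these 3 genes the groups did not overlap, and the difference passed whichever array was left out.

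Each of the other 5 calls was lost when some array was left out. Sema3c was at 8.05, 8.20 and 8.05 in the co-culture, against 7.52, 7.72 and 7.80 in precursors (0.42, SE 0.082, adjusted p = 0.0107, limma). Co-culture replicate 2 was highest. Without it the difference was 0.37 (adjusted p = 0.0538, limma). The same array stood highest for Dcn and Lum, matrix genes of meningeal cells: Dcn was at 6.97, 8.25 and 6.42 in the co-culture and 6.20, 6.75 and 6.75 in precursors. Lum was too dim for the test. That array was highest for Pdgfrb, Col1a1 and Col1a2 too, and lowest for Rgs5 (6.81, 6.77 and 6.91 in the co-culture). Over 6 pericyte and meningeal markers, of which none of 5 tested passed, the mean level was 6.83 to 7.60 in the co-culture and 6.68 to 6.99 in precursors, and their part in the result was not tested.

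Sema4f was higher in the co-culture by 0.23 (adjusted p = 0.00944, limma), but not without co-culture replicate 2 (0.0502). Sema4g was higher by 0.28 (adjusted p = 0.0199, limma), but not without precursor replicate 1 (0.0610) or 3 (0.0740) or co-culture replicate 2 (0.0745) or 3 (0.0776). Nrp1 was at 8.35, 8.42 and 8.35 in the co-culture and 8.02, 8.14 and 8.22 in precursors, higher by 0.25 (adjusted p = 0.0270, limma). That call was lost without precursor replicate 1 (0.0720) or 2 (0.0698) as well as without replicate 1 (0.0753), 2 (0.121) or 3 (0.0661) of the co-culture, and without the filter on dim genes (0.0634). Plxna1, higher by 0.18 (adjusted p = 0.0420, limma), passed without neuron replicate 2 and failed without any other array (adjusted p from 0.0549 to 0.164), and failed with the replicate block (0.0762), with both its probe sets averaged (0.109) and without the filter (0.107). Leaving out precursor replicate 1 gave 5 higher members, leaving out co-culture replicate 3 gave 5, and leaving out co-culture replicate 2 gave 3. With arrays centred on the median of the tested genes 4 were higher, namely Plxdc2, Sema7a, Sema6b and Sema3c. There 87.6% of all calls were higher, in place of 97.6%. How many of all tested genes passed at each of these settings was not counted.

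None of the 7 members that were lower in neurons passed between the co-culture and precursors. Sema5b was at 9.59, 9.48 and 9.57 in the co-culture and 9.65, 9.62 and 9.71 in precursors, a difference of -0.11 (interval -0.36 to 0.13) that did not pass (adjusted p = 0.720, limma), although the arrays of the groups did not overlap. Sema6d differed by -0.024 (interval -0.12 to 0.071), Plxnb1 by -0.011 (interval -0.14 to 0.12), Plxnb2 by -0.032 (interval -0.14 to 0.080) and Nrp2 by -0.017 (interval -0.16 to 0.13). Each of these intervals leaves room for a small change in either direction. Sema6a was higher by 0.17 and did not pass (adjusted p = 0.0565, limma). It passed with arrays centred on their own median (0.0461), array weights (0.0261), the stricter filter (0.0234) and without neuron replicate 3 (0.0447). With arrays centred on the median of the tested genes it did not. Plxnd1, higher by 0.14 (adjusted p = 0.108, limma), passed with the stricter filter (0.0496) and with array weights (0.0425).

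The co-culture arrays also serve the comparison with neurons, so it is not independent of the last one. The co-culture was higher than neurons for 7 of 30 members, against 35.7% of all tested genes, and lower for 15, against 24.9%. The arrays did not overlap for 24 members, against 65.4% of all tested genes. Sema5b was 2.36-fold higher in the co-culture (1.24, adjusted p = 7.71e-06, limma), Sema6d 1.61-fold (0.69, adjusted p = 7.03e-07) and Plxnb1 1.58-fold (0.66, adjusted p = 6.78e-06; 0.35 with its probe sets averaged). Plxdc2 was 2.67-fold lower (-1.42, adjusted p = 7.63e-08, limma), Sema7a 1.75-fold (-0.81, adjusted p = 8.74e-07), Plxnd1 1.60-fold (-0.68, adjusted p = 1.47e-06) and Sema6b 1.59-fold (-0.67, adjusted p = 5.95e-06). All 4 plexin As were lower in the co-culture. Nrp1, at 8.35, 8.42 and 8.35 in the co-culture and 8.52, 8.45 and 8.44 in neurons, did not pass (-0.098, adjusted p = 0.173, limma), though it did with cyclic loess (-0.16, adjusted p = 0.0315) and with arrays centred on the median of the tested genes (-0.21, adjusted p = 0.0120). Sema3a passed at -0.10 (adjusted p = 0.0437, limma) and lost the call whichever array was left out (adjusted p from 0.0507 to 0.131). Sema4b, higher in the co-culture by 0.30 (adjusted p = 0.0136, limma), did not pass without co-culture replicate 1 (0.0541), and without neuron replicate 3 its difference was 0.20 (0.0287). Nrp2, higher by 0.27 (adjusted p = 0.00540, limma), did not pass with cyclic loess (0.16, adjusted p = 0.0639). Sema3c, at -0.16 (adjusted p = 0.129, limma), passed with cyclic loess (0.0497). With arrays centred on the tested genes the median difference over all genes was -0.080, in place of 0.032. Then 41.4% of all calls were higher in the co-culture, in place of 58.9%, and 5 members were higher and 19 lower. The matching shares of all tested genes were not counted.

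The co-culture level was last set against what mixing would give. Its mean lay between those of neurons and precursors for 22 of 30 tested members (73.3%), and for 63.4% of all tested genes. After adjustment no member was called outside both separate cultures, nor was any of the 13012 genes (limma, the larger of 2 one-sided p-values). At an unadjusted p under 0.05, 0 members and 268 genes were called. Genes at least 4-fold apart, with the members left out, put the share of neuron RNA in the co-culture at 16.6% ± 1.10 (SD, n = 3). Genes higher in neurons alone gave 22.6% and genes higher in precursors gave 10.5%. For single members the same ratio was 23.6% for Plxdc2, 27.8% for Sema7a, 26.9% for Sema6b and 12.5% for Sema5b, the 4 members at least 2-fold apart between neurons and precursors. Members less far apart spread more widely, among them Nrp1 at 69.3%, Sema3c at 69.0% and Plxnb1 at 1.96%.

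**Figure D4:**
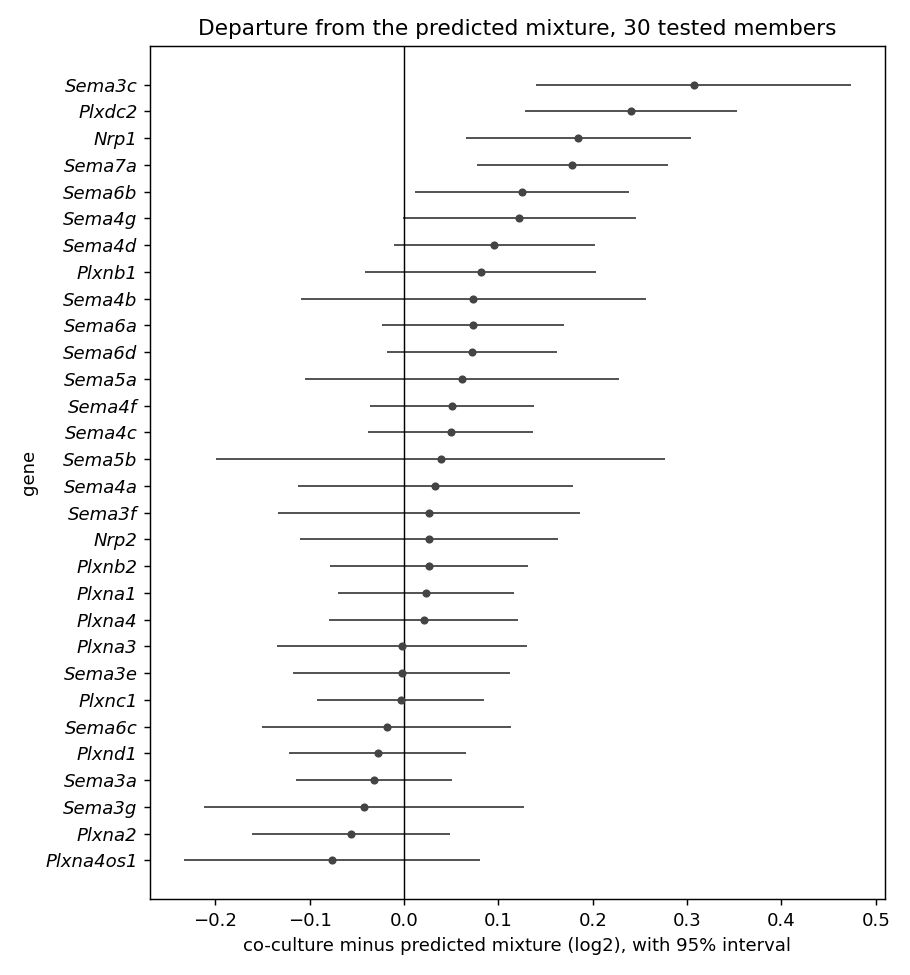
Co-culture level minus the level predicted for a mixture at the estimated neuron share (log2, x axis) for the 30 tested members, with 95% intervals from limma that leave out the error of the share. Sema3c lies farthest to the right at 0.31, followed by Plxdc2 at 0.24, and Plxna4os1 farthest to the left at -0.077.

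No member departed from the predicted mixture after adjustment (limma), where 0.361% of all tested genes lay above it and 0.0307% below. At an unadjusted p under 0.05, 5 members did, against 8.27% of all tested genes. Sema3c was at 8.10 in the co-culture, against a predicted 7.79, a departure of 0.31 (SE 0.074, adjusted p = 0.213, limma). Plxdc2 departed by 0.24 (adjusted p = 0.118), Nrp1 by 0.18 (adjusted p = 0.327), Sema7a by 0.18 (adjusted p = 0.247) and Sema6b by 0.12 (adjusted p = 0.536). All 5 lay above the mixture, and the median over all tested genes was 0.034. All 5 were also higher in neurons than in precursors. The share used, 16.6%, lies below the 22.6% from genes at least 4-fold higher in neurons. Taken singly, Sema3c and Nrp1 had ratios of 69.0% and 69.3%. Plxdc2, Sema7a and Sema6b had 23.6%, 27.8% and 26.9%. The cause of these departures was not tested. The call turned on the share: with the share from genes higher in precursors, Plxdc2 (0.48, adjusted p = 0.00111), Sema7a (0.28, adjusted p = 0.0140) and Sema3c (0.35, adjusted p = 0.0496) passed. With array weights Plxdc2 passed as well (0.26, adjusted p = 0.04996). The share from genes higher in precursors, 10.5%, lowers the prediction for every gene higher in neurons. How many of all tested genes passed at that share, or with array weights, was not counted. At the share from genes higher in neurons, 22.6%, no member passed.

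**Figure D5:**
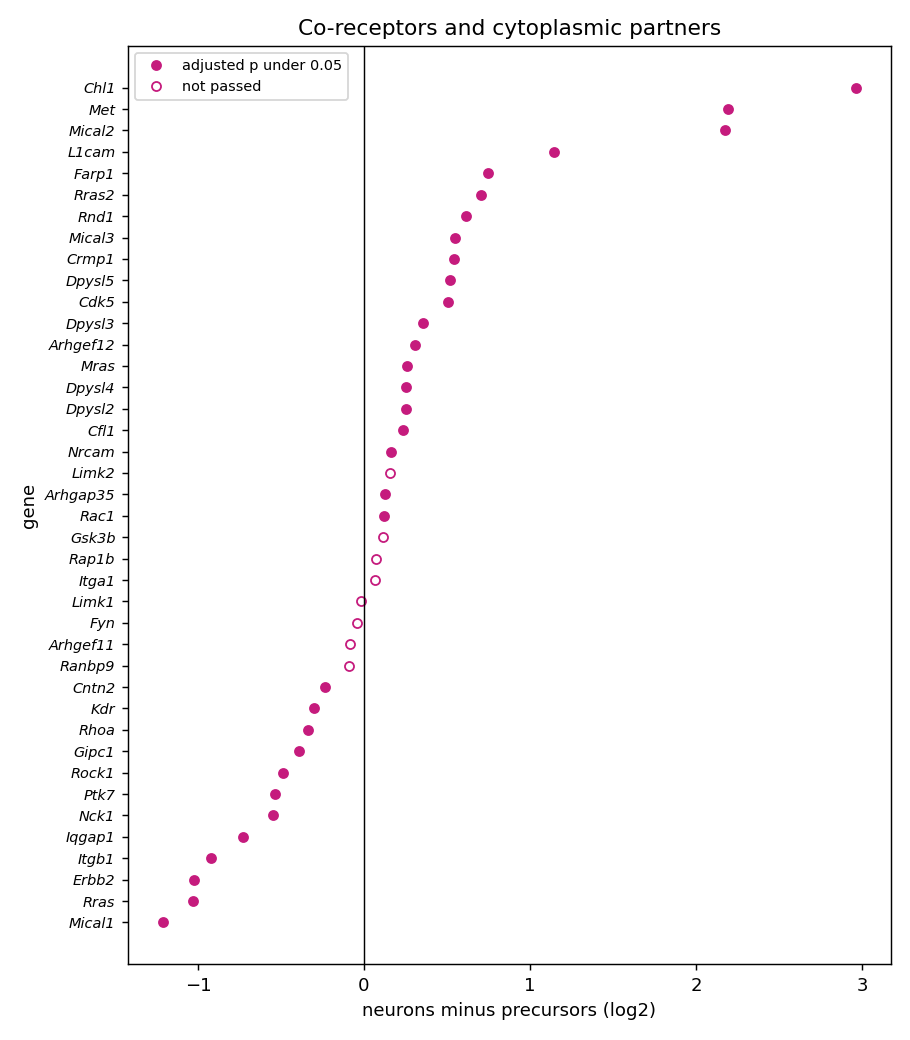
Log2 difference between neurons and precursors (x axis, neurons minus precursors) of the 10 co-receptors and 30 tested cytoplasmic partners of semaphorin signalling. Filled points passed at an adjusted p under 0.05 (limma) and open points did not; Chl1, Met and Mical2 stand farthest to the right and Mical1 farthest to the left.

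Genes that work with these receptors were read from a list of 10 co-receptors and 35 cytoplasmic partners, of which 10 and 30 were tested. Of the co-receptors 4 were higher and 5 lower in neurons, and of 30 tested cytoplasmic partners 16 were higher and 7 lower, beside 28.0% higher and 35.2% lower over all tested genes. Chl1, an adhesion molecule that joins Nrp1 in Sema3a signalling, was at 11.68 in neurons and 8.72 in precursors, 7.79-fold higher (adjusted p = 1.33e-09, limma), and L1cam, its relative with the same role, was 2.21-fold higher (adjusted p = 2.84e-08). Met, a receptor kinase that pairs with plexin B1, was 4.58-fold higher (adjusted p = 2.08e-09, limma), while Erbb2, another such kinase, was lower (-1.02, adjusted p = 5.40e-07). Itgb1, the integrin subunit through which Sema7a acts on axons, was lower in neurons, at 8.39, 8.64 and 8.40, against 9.33, 9.39 and 9.49 in precursors (-0.92, adjusted p = 3.47e-06, limma); Itgb1, Erbb2 and the genes of the response mediators below were singled out after their values were seen. The actin-oxidising enzymes that bind plexin As split, with Mical2 4.52-fold higher (adjusted p = 2.48e-09, limma) and Mical1 2.32-fold lower (adjusted p = 6.05e-07). All 5 collapsin response mediator genes, named for their part in the growth cone's response to Sema3a, were higher, from Dpysl2 at 0.25 to Crmp1 at 0.54. Rras, a GTPase on which plexins act, was 2.04-fold lower (adjusted p = 1.93e-05, limma).

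In the co-culture, 4 co-receptors and 5 cytoplasmic partners were higher than in precursors and none was lower, beside 8.22% higher and 0.200% lower over all tested genes. Chl1 was 2.95-fold, Met 1.80-fold and Mical2 1.54-fold higher (adjusted p = 1.18e-06, 1.62e-05 and 1.35e-04, limma). L1cam (0.40), Rras2 (0.25) and Cntn2 (0.24) followed. Unlike the others named here, Cntn2 was lower in neurons than in precursors (-0.23, adjusted p = 0.00313, limma). Its arrays were at 9.58, 9.65 and 9.60 in the co-culture. They were at 9.11, 9.05 and 9.23 in neurons and at 9.36, 9.37 and 9.36 in precursors. Like every tested gene, Cntn2 was not called outside both separate cultures after adjustment. Against neurons, 5 co-receptors were higher in the co-culture and 3 lower, and 9 cytoplasmic partners were higher and 14 lower, beside 35.7% higher and 24.9% lower over all tested genes. Mical2 (-1.55), Chl1 (-1.40) and Met (-1.35) were the farthest below neurons, and Mical1 (1.08), Erbb2 (0.99) and Rras (0.95) the farthest above (all limma, adjusted p under 0.05).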

How the data were processed

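The authors deposited log2 values, 1 per probe set and array. The submitters' processing notes name RMA and oligo; versions and genome build are not given in the sources used here. RMA equalises the arrays' distributions, so differences are relative to the other genes on an array, and dim genes can show folds that are too small. The platform table names a single gene for 23521 of 41345 probe sets, several for 1814 and none for 16010; where a gene had several sets, that with the highest mean was used. Arrays have no read depth, so 3 arrays per group limit the precision. Replicates are called biological in the labels; which embryos or litters they stand for is not given.

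One model over all 9 arrays (limma 3.58.1, R 4.3.3, with lmFit and eBayes) gave two-sided contrasts, adjusted over 13012 genes. The code was tried on simulated data with independent arrays, without the correlations given below, and its outcome is not given here. Alternatives were other filters, cyclic loess, centred arrays, array weights, averaged probe sets, the replicate block, each array left out and other neuron shares. Same-numbered co-culture and precursor arrays deviated from their group means together (correlations across genes of 0.345, 0.300 and 0.161). For neurons, the same-numbered correlations were -0.00511, 0.268 and 0.170 with the co-culture, and 0.00431, 0.134 and -0.148 with precursors. The main model has no term for the replicate number, so its contrasts treat all arrays as unpaired. The replicate block gives all 9 arrays a term for that number, neurons included. All members were named, and of the partner list the 6 largest differences per comparison. Members and lists were chosen with earlier results of these data known.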

Additional observations from a re-analysis of the deposited data

How the results depend on the processing

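No call of a tested member reversed under any alternative. Between neurons and precursors, 15 to 17 members were higher and 6 or 7 lower under every alternative, and Sema4b was the 1 member to lose its call. Against precursors, the co-culture's count of 8 higher members ran from 3 to 8 when 1 array was left out. It was 4 with arrays centred on the median of the tested genes, an alternative chosen after seeing the data, and 7 with the replicate block. The block ended the calls of Plxna1 against precursors (0.18, adjusted p = 0.0762, limma) and Sema3a against neurons (-0.10, adjusted p = 0.0709), and no other. Against the predicted mixture, the count of 0 members above became 1 with array weights and 3 with the share from genes higher in precursors alone. It stayed at 0 with the share from genes higher in neurons alone and with 1 array left out. How many of all tested genes passed under each alternative was not counted, so these member counts have no background beside them. The stricter filter left Plxna4os1, Sema3a, Sema3e, Sema3g, Sema4d and Sema4f untested. The number of arrays, 3 per group, limits the precision, and members near or below the array median may have differences that are too small.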
